A study of Homo sapiens with 10 samples.

Results

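Transcripts of the nuclear-encoded subunits of oxidative phosphorylation were described in cultured gastric cancer cells on 10 single-channel expression arrays. The subunits were taken by gene symbol: the NDUFA, NDUFB, NDUFC, NDUFS and NDUFV subunits and NDUFAB1 of complex I, the SDH subunits of complex II, the UQCR genes and CYC1 of complex III, the subunits COX4 to COX8 of complex IV and the ATP5 genes of complex V. Pseudogenes and assembly factors were not taken. Where several probe sets name a gene alone, the brightest on average stood for it. This gave 77 of 19775 genes: 33 of complex I, 3 of complex II, 7 of complex III, 16 of complex IV and 18 of complex V. Side population cells were on 4 arrays and non-side population cells on 4, each lettered a to d, and unsorted cells were on 2, lettered a and b. The side population was sorted by flow cytometry as the cells that keep little of the DNA-binding dye Hoechst. The origin label of all 10 arrays names the gastric carcinoma lines AGS and MKN 45, and no label names a treatment or a genetic change. The source label names AGS for 8 arrays and no line for side population replicates a and b, so for letters a and b the sorted population and this label cannot be told apart. Within the side population, letters a and b against c and d cannot be told apart from this label either. The difference of side minus non-side between the letter pairs has the same limit. Replicates may be technical, since the labels do not say that they came from separate cultures, and p-values then measure only the spread between these samples.

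Oxidative phosphorylation passes electrons from NADH, through complex I, and from succinate, through complex II, to ubiquinone, then through complex III and cytochrome c to complex IV, which reduces oxygen. Complexes I, III and IV pump protons across the inner mitochondrial membrane, and complex V, the ATP synthase, makes ATP from the gradient. Most subunits are encoded in the nucleus and imported, while a core of complexes I, III, IV and V is encoded in mitochondrial DNA. NRF1, GABPA and YY1 are transcription factors known to bind promoters of many nuclear subunit genes.

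The promoters are shown as background, and the part of these motifs in the members' values was not tested. The 4 printed are examples of members that carry one of these motifs and whose values are given array by array below. NDUFA6, NDUFA7 and NDUFS1 are described in the same way and carry a motif as well, and their promoters are not printed. RefSeq promoters of GRCh38.p14, 250 bases before to 50 bases after the start of the gene and 300 bases long, were found for 65 of the 77 genes, 61 of them tested. The motifs searched on both strands were GCGCATGCG for NRF1, CCGGAAGT for GABPA and AAGATGGCG for YY1. The NRF1 motif was in 16.4% of the 61 tested members' promoters and in 2.10% of the promoters of all 27305 genes with one. The GABPA motif was in 14.8% against 4.43%, and the YY1 motif in 11.5% against 1.85%. Any of the 3 was in 37.7% of the members' promoters and 7.86% of all promoters. These are counts of letters in a window, not of bound sites, and the 27305 genes were not limited to those tested on the arrays. Capitals mark the motif, or its reverse complement, in the members below, each with its RefSeq position and strand.
UQCRC1, a core protein of complex III (chr3:48609597-48609896, minus strand; YY1 motif):
UQCRC1: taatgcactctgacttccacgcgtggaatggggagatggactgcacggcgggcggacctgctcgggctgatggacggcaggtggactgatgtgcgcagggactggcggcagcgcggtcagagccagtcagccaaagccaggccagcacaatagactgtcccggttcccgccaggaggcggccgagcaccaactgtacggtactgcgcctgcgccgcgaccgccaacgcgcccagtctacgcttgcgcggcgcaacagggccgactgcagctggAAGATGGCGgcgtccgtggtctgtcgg
SDHD, a membrane anchor of complex II (chr11:112086623-112086922, plus strand; the NRF1 motif on both strands, overlapping, and the GABPA motif on the other strand):
SDHD: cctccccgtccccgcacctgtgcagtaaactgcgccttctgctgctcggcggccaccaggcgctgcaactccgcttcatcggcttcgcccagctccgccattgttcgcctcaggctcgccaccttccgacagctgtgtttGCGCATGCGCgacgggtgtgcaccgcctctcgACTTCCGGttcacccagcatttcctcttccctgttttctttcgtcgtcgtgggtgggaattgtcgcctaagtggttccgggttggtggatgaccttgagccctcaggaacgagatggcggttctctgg
NDUFA8, an accessory subunit of complex I (chr9:122159730-122160029, minus strand; the NRF1 motif on both strands, overlapping):
NDUFA8: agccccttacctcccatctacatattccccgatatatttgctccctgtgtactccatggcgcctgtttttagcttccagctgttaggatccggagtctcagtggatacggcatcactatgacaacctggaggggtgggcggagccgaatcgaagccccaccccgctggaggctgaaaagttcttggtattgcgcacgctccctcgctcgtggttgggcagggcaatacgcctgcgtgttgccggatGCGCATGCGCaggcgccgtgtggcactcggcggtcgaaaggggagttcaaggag
COX5B, a nuclear subunit of complex IV (chr2:97645812-97646111, plus strand; the GABPA motif at 2 places):
COX5B: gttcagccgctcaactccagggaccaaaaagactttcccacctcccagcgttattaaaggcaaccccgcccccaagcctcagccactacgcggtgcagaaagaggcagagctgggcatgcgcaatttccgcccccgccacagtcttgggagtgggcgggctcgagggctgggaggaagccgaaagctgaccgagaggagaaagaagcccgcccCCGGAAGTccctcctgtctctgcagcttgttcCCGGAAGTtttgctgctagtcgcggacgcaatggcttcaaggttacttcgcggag

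Of the 77 genes, 70 had a mean log2 value above the median of all genes, an intensity of 148.5, and were among the 9888 genes tested. Of these 70, 67 were among the brightest 2472 genes tested, and each of the 70 was above its own array's median on 10 of 10 arrays. The 7 others were COX4I2, COX6A2, COX6B2, COX7A1, COX7B2, COX8C and ATP5MF. The first 6 are the isoforms of complex IV subunits known from lung, muscle or testis, and they stand beside their partners in the account of complex IV. The only ATP5MF probe set that names the gene alone gave 8.90 to 84.2, and a further set that also names ARMC2-AS1 was not used. Intensities are compared between arrays only, never between genes, since probes differ in brightness.

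The deposited intensities had been scaled to a trimmed mean near 500 on every array. Side population replicate a had a 3′ to 5′ ratio of the actin probe sets of 3.34, while the other 9 arrays lay between 0.987 and 1.28. Its GAPDH ratio was 1.87, against 0.864 to 1.06 on the others. The 5′ probe set of 18S ribosomal RNA read 563 on non-side c, 851 on side d and 274.6 and 828 on unsorted a and b, against 22182 to 33704 on the other 6 sorted arrays. Non-side replicate c had the highest array median, 85.4, against 58.7 to 75.2 on the others. Of the 5 epithelial markers listed, 5 were above the array median on every array. PTPRC and CD3E, which mark leukocytes and T cells, lay between 2.20 and 69.0. HBB, a haemoglobin gene, lay between 85.1 and 233, and PECAM1, an endothelial marker, between 52.8 and 201. From 1 to 4 of the 8 measured blood and endothelial markers were above the array median. The 8 measured markers of blood and endothelial cells summed to 6792 to 43964 in the side population, 25879 to 41794 in the non-side population and 24506 to 25738 in unsorted cells, nearly all of it LYZ, the lysozyme gene, which gastric epithelium also makes. LYZ had 6247, 12778, 36335 and 43612 in side replicates a to d, 26329.6, 25453, 33746 and 41352 in non-side replicates a to d and 25315 and 24160.2 in unsorted cells. LYZ was low on side a and b, where the subunits' medians were low as well, but not on non-side c, where the subunits' median was lowest. Its difference was -2.15 ± 0.29 for a and b minus c and d in the side population (adjusted p = 0.00242 by limma). For side minus non-side in a and b it was -1.53 ± 0.29 (adjusted p = 0.0213 by limma). The 8 fibroblast markers summed to 2023 to 2598, 1657 to 2288 and 2119 to 2757. Of these 8, 2 to 4 were above the array median, and COL1A1, a collagen gene, lay between 1018 and 2010. Only 2 of them were tested. ACTA2, smooth muscle actin, was lower in a and b than in c and d in both populations, at -0.99 ± 0.26 and -0.91 ± 0.26 (adjusted p = 0.0483 and 0.0312 by limma). COL1A1 went the other way in the side population, with 1789 and 2003 on a and b and 1098 and 1395.5 on c and d. In non-side replicates a to d it had 1018, 1521, 1306 and 1205. Fewer cells of a type and less RNA per cell cannot be told apart in such bulk samples, and the part of these values in the results was not tested.

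Over all 4 replicates of each population, no subunit gene was called between side and non-side cells. The median difference of the 70 genes, side minus non-side, was 0.02 on the log2 scale, against 0.045 over all 9888 genes tested, and 45 of the 70 were positive. Calls needed limma's adjusted p, by Benjamini-Hochberg over all 9888 genes, to be under 0.05, and 0% of all genes were called in this comparison. The median standard error of the 70 differences was 0.22, and 0 of the 70 had an unadjusted p under 0.05. The highest difference was NDUFB8, an accessory subunit of complex I, at 0.24 ± 0.21 (log2 ± SE, n = 4 and 4), and the lowest was SDHC, a membrane anchor of complex II, at -0.33 ± 0.25. None of the 70 genes separated the 4 side arrays from the 4 non-side arrays. The sign of the median depended on single arrays: it was -0.13 without non-side c and -0.07 without side c.

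Against unsorted cells, 0 of the 70 genes were called for the side population, where 2.45% of all genes tested were called, and 0 for the non-side population, where 3.66% were. At an unadjusted p under 0.05 limma gave 1 higher and 1 lower in each. Without non-side c, 3 members were called for the non-side population, and the share of all genes called in that fit was not set beside this count. The median differences were 0.0013 and 0.03. NDUFA7 and UQCR10, both accessory subunits, lay furthest out in both sorted populations. NDUFA7 of complex I had intensities of 2942.5, 1664.5, 4507 and 2701 in side population replicates a, b, c and d, 2551, 2672, 1943 and 3482 in non-side replicates a to d, and 1597 and 1464 in unsorted a and b. All 8 sorted arrays were above both unsorted arrays, with log2 differences of 0.86 ± 0.34 (adjusted p = 0.199 by limma) and 0.77 ± 0.34 (adjusted p = 0.231). UQCR10 of complex III had 10056, 11538, 13857 and 11429.9 in the side population, 13039, 15309, 8358 and 10369 in the non-side population and 18415 and 16195 in unsorted cells. All 8 sorted arrays were below both unsorted arrays, with log2 differences of -0.57 ± 0.26 and -0.59 ± 0.26, with adjusted p = 0.267 and 0.218 by limma. A further UQCR10 probe set above the filter had the opposite sign in both, at 0.20 and 0.30. In all, 11 of the 70 genes were higher on all 4 side arrays than on both unsorted arrays, where 21.4% of all genes tested were.

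The subunits of the complexes mostly moved together from one array to the next. For each gene, the deviation of an array from the gene's mean over the 10 arrays was taken on the log2 scale. The median deviation of the 70 genes was -0.12, -0.13, 0.25 and 0.05 on side population replicates a to d, 0.08, 0.28, -0.48 and 0.12 on non-side replicates a to d, and 0.01 and -0.06 on unsorted a and b. Non-side c was low and non-side b and side c were high, by the median of every complex. On other arrays the complexes differed. On side a the median was 0.02 for complex IV and -0.42 for complex II, and on non-side d -0.01 for complex III and 0.22 for complex IV. Of the 8 sorted arrays, non-side c was the lowest for 53 of the 70 genes. Non-side b was the highest for 35 and side c for 19. Ribosomal protein genes had a median deviation of -0.56 on non-side c, 0.23 on non-side b and -0.12 on side c, and the brightest 2472 genes had -0.27, 0.19 and 0.08 on the same arrays. Non-side c was thus low for these other bright genes as well. The brightness of side c for the subunits, 0.25, was not shared by the ribosomal protein genes.

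**Figure D1:**
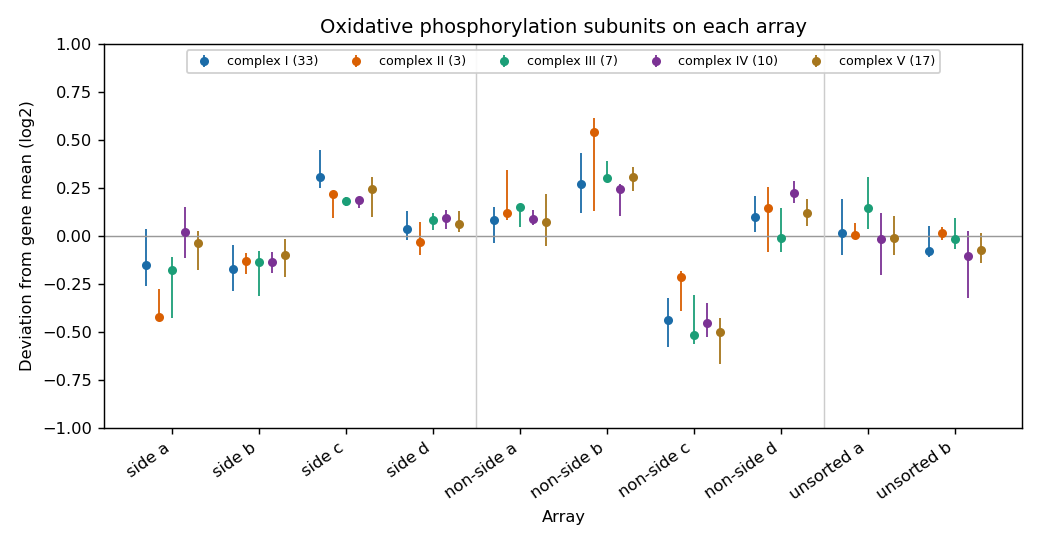
Median deviation (log2) of the subunits of each complex from the gene's own mean over the 10 arrays, for each array, with bars from the lower to the upper quartile of genes and the number of genes in the legend. Non-side replicate c lies below 0 for every complex, with medians from -0.52 for complex III to -0.22 for complex II.

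The replicate letters divide the sorted arrays into a and b, and c and d. This division was picked in earlier work on these arrays after their values had been seen, so its adjusted p-values may be too small. In letters a and b the subunits were lower in the side than in the non-side population, and within c and d they were higher. The median difference of side minus non-side was -0.29 in a and b, where 68 of 70 genes were negative and the median of all genes tested was 0.10. The brightest 2472 genes had the members' sign there, with a median of -0.17. In c and d it was 0.35, with 68 of 70 genes positive and a median of 0.01 over all genes, and the brightest 2472 genes were again on the members' side, with a median of 0.13. In a and b, 48 of 70 genes had both side arrays below both non-side arrays, against 24.6% of all genes tested, and 3 genes were called lower, against 2.07% of all genes. An unadjusted limma p under 0.05 was reached there by 10% of the members, against 30.7% of all genes and 32.7% of the brightest 2472. In c and d, 24 genes had both side arrays above both non-side arrays, against 14.5% of all genes, and 0 genes were called among the members and 0% among all genes, with 4 members at an unadjusted limma p under 0.05, 5.71% of the members against 4.40% of all genes. The comparisons within and between letters are made from the same 8 arrays and are not independent of each other.

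Read the other way, letters a and b were below c and d in the side population and above them in the non-side population. In the side population the median of a and b minus c and d was -0.29, against 0.02 over all genes tested and 0.0063 over the brightest 2472. There, 63 of 70 genes were negative, 48 had both a and b below both c and d, against 24% of all genes, and 3 were called lower, against 3.18% of all genes. In the non-side population the median was 0.40, against -0.12 over all genes, and 60 of 70 genes were positive. The brightest 2472 genes had a median of 0.27, with 63.6% of them positive. There, 29 genes had both a and b above both c and d, against 25.8% of all genes, 4 genes were called higher, against 7.58%, and 2 were called lower, against 13%. The share of members called was thus near or below that of all genes in each of these comparisons, at 3 of 70, 4 of 70 and 2 of 70. In the side population 20% of the members had an unadjusted limma p under 0.05, against 21.2% of all genes and 20.3% of the brightest 2472. In the non-side population it was 25.7%, against 37.7% and 44.3%. Leaving out side b, side c or side d left 1 call in the side population, and leaving out non-side c or non-side d gave 5. In the non-side population the 6 calls became 0 without non-side b, 1 without non-side c and 3 without unsorted a or unsorted b.

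The difference of the differences, side minus non-side in a and b less the same in c and d, had a median of -0.63, against 0.15 over all genes, and 68 of 70 were negative. Limma called 0 members and 0% of all genes for it, and the smallest adjusted p of a member was 0.0993, for CYC1. Its median was -0.64 for complex I, -1.015 for complex II, -0.83 for complex III, -0.42 for complex IV and -0.63 for complex V. Over the brightest 2472 genes the median was -0.30. Of the 70 genes, 25 had an unadjusted limma p under 0.05, all 25 lower. This was 35.7% of the members, against 26.8% of all genes tested and 33.4% of the brightest 2472. Without non-side d, which leaves only non-side c for letters c and d of that population, the median of the 70 genes was -0.96. Other probe sets name the same genes alone, and 37 of them passed the same intensity filter. Of these 37, 34 had the sign of the chosen probe set in this difference. For a and b minus c and d, 26 of the 37 had it in the side population and 34 in the non-side population. For side minus non-side, 33 had it in a and b, 30 in c and d and 17 over all letters. Against unsorted cells, 20 had it for the side population and 22 for the non-side population.

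**Figure D2:**
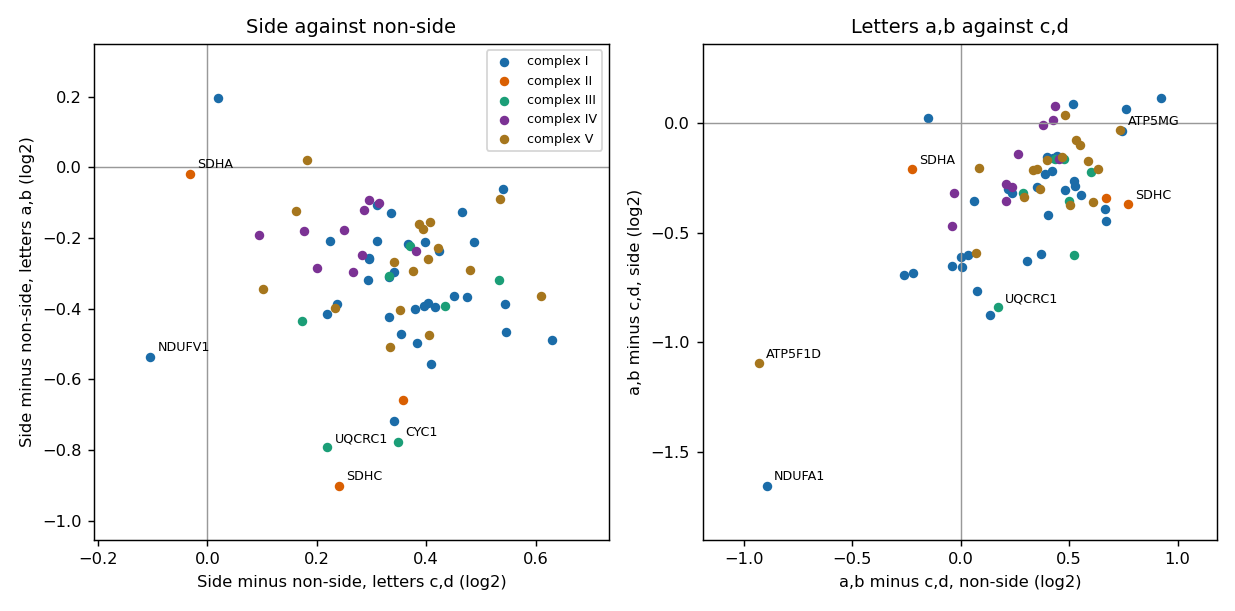
Each point is 1 of the 70 subunit genes, coloured by complex. Left, log2 difference of side minus non-side within letters c and d (horizontal) and within a and b (vertical). Right, log2 difference of a and b minus c and d in the non-side (horizontal) and side (vertical) population. Most points on the left lie to the lower right, with SDHC, UQCRC1 and CYC1 lowest, and NDUFA1 and ATP5F1D lie at the lower left on the right.

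In complex I, which takes electrons from NADH, 32 of 33 genes were lower in the side population within letters a and b, and 32 of 33 were higher within c and d. NDUFB10, an accessory subunit of the membrane arm, had 4741, 6090.1, 7757 and 6420.0 in side replicates a to d, 7376, 10594, 4848 and 6406 in non-side replicates a to d, and 7901 and 6902 in unsorted cells. Both side arrays of letters a and b were below both non-side arrays of these letters, and non-side b was the highest of all. Its difference of side minus non-side was -0.72 ± 0.25 in a and b and 0.34 ± 0.25 in c and d, and the difference of the 2 was -1.06 ± 0.35 (adjusted p = 0.115 by limma). NDUFA2, an accessory subunit, had 5676, 4915, 9179 and 7269 in the side population, 6256, 7635.5, 4896 and 6404 in the non-side population and 7311 and 6692 in unsorted cells. Side c was the highest, and in c and d the side arrays were above the non-side arrays. Its differences were -0.39 ± 0.22 in a and b and 0.54 ± 0.22 in c and d, and the difference between them -0.93 ± 0.32. NDUFA8, whose promoter is printed above, had 4382, 4009, 7004 and 4678 in the side population, 5251, 6599, 2849.5 and 4791 in the non-side population and 4001 and 3770.5 in unsorted cells. Side c and non-side b were its highest arrays and non-side c its lowest, and the difference between letter pairs was -1.12 ± 0.38.

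NDUFA6 and NDUFS3, an accessory and a core subunit, were called higher in a and b than in c and d in the non-side population. NDUFA6 had 8271, 8321, 9515 and 6190.4 in side replicates a to d, 9739.7, 12246, 4797 and 6900.1 in non-side replicates a to d and 8560.2 and 8442 in unsorted cells, and its difference in the non-side population was 0.92 ± 0.25 (adjusted p = 0.0265 by limma). Non-side a and b were above non-side c and d, and the side arrays overlapped. NDUFS3 had 3959.6, 4533, 4875.5 and 3865 in the side population, 4945, 6329, 2728 and 4082 in the non-side population and 4053 and 4052 in unsorted cells, and a difference of 0.74 ± 0.24 (adjusted p = 0.0454). Without non-side c these were 0.66 and 0.45, with adjusted p = 0.168 and 0.304, and without non-side b 0.76 and 0.57, with adjusted p = 0.168 and 0.253. NDUFS3 also lost its call without side c, side d, unsorted a or unsorted b, with adjusted p from 0.0510 to 0.0758. NDUFS1, the largest core subunit of the electron-input arm, was the member furthest from the rest in the other direction, with a difference between letter pairs of 0.18 ± 0.33. It had 3186, 2981.5, 2851 and 3229 in the side population and 3383, 2141, 2849 and 3144 in the non-side population. Non-side b was its lowest array, and of the 8 sorted arrays it was the highest for 35 of the 70 members. NDUFV1, the subunit that binds NADH, was 1 of the 2 members below 0 for side minus non-side in c and d, at -0.10 ± 0.22, with -0.54 ± 0.22 in a and b.

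Complex II, which oxidises succinate and belongs to the citric acid cycle as well, is described by SDHA, the flavoprotein, and by SDHC and SDHD, the membrane anchors. SDHC had 4736, 5287, 7424.5 and 5649.7 in side replicates a to d, 9437, 9254, 4274 and 7029.5 in non-side replicates a to d and 6379 and 6085 in unsorted cells. Non-side a and b were above all other arrays, and non-side c was the lowest. In a and b the side population was lower, at -0.90 ± 0.25 on the log2 scale, 0.536 times the non-side level (adjusted p = 0.0431 by limma). In the non-side population a and b were above c and d by 0.77 ± 0.25 (adjusted p = 0.0446 by limma), which was 0.41 with adjusted p = 0.300 without non-side c. That call was also lost without side a, side b, non-side a, non-side b, unsorted a or unsorted b, with adjusted p from 0.0501 to 0.157. Of 5 further SDHC probe sets above the filter, 4 were also lower in the side population within a and b, from -2.24 to -0.02, and 1 was at 0.19. SDHD had 4063, 5429.5, 6502 and 5464 in the side population, 6082, 9041, 4815 and 4496 in the non-side population and 5483 and 5916.5 in unsorted cells. Non-side b was its highest array and side a its lowest, and its difference between letter pairs was -1.01 ± 0.34. SDHA had 2574, 2580.3, 2774 and 3209.8 in the side population, 2928, 2327, 2552 and 3648 in the non-side population and 3081 and 2860.3 in unsorted cells. These ranges overlapped in all pairs of populations and letters that were compared except a and b against c and d of the side population, where a and b were lower. Its difference between letter pairs was 0.01 ± 0.32, and it was -0.19 under median centring and -0.24 to 0.27 on leaving out 1 array, against -1.14 ± 0.35 for SDHC.

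In complex III, which passes electrons from ubiquinol to cytochrome c, 7 of 7 genes were lower in the side population within a and b, and 7 of 7 higher within c and d. CYC1, the cytochrome c1 subunit, had 4423, 4833, 7217.5 and 6838 in side replicates a to d, 7193, 8723, 5065 and 6008.5 in non-side replicates a to d and 8447 and 7292 in unsorted cells. Side a and b were the 2 lowest arrays, and non-side b was the highest. In a and b the side population was lower, at -0.78 ± 0.21, 0.584 times the non-side level (adjusted p = 0.0395 by limma), and in c and d it differed by 0.35 ± 0.21. UQCRC1 had 4138, 4495, 7377 and 8102 in the side population, 7229.9, 7729, 5709.5 and 7724 in the non-side population and 7600.1 and 6539 in unsorted cells. Side a and b lay below each of the other 8 arrays. Its difference was -0.79 ± 0.21 in a and b (adjusted p = 0.0409 by limma), 0.22 ± 0.21 in c and d, and -0.84 ± 0.21 for a and b minus c and d in the side population (adjusted p = 0.0404). The last call was lost without any 1 of the side arrays or of the unsorted arrays, with adjusted p from 0.0786 to 0.172. UQCR10, whose values stand above, had -0.39 ± 0.22 in a and b and 0.43 ± 0.22 in c and d.

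The 3 calls within a and b, CYC1, UQCRC1 and SDHC, had adjusted p-values close to the threshold. They were lost under quantile normalization, with adjusted p from 0.0505 to 0.0560, and on leaving out side a, side b, non-side a, non-side b, unsorted a or unsorted b, with adjusted p up to 0.188. CYC1 and UQCRC1 were also lost without side c or side d, with adjusted p from 0.0505 to 0.0511. Their log2 differences stayed between -0.98 and -0.62 in these settings. Without side a, the array with the high actin ratio, the differences were -0.71, -0.73 and -0.82, and without non-side c or non-side d 5 members were called.

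Complex IV, which passes electrons to oxygen, had the median difference between letter pairs closest to 0 of the 5 complexes, at -0.42. Of its 10 tested genes, 10 were lower in the side population within a and b and 10 higher within c and d, with medians of -0.19 and 0.27. COX6B1, an accessory subunit, had 15702, 13872, 17091 and 16064 in side replicates a to d, 16077, 18783, 9961 and 16225 in non-side replicates a to d and 17413 and 16149 in unsorted cells. Non-side c was far below the other arrays, and the difference between letter pairs was -0.62 ± 0.34 (adjusted p = 0.25 by limma). COX5B, whose promoter is printed above, had 15975, 13451, 18992 and 17024 in the side population, 16479.7, 18384, 12567 and 17378 in the non-side population and 13342 and 12775 in unsorted cells, and COX6C had 19402, 17381, 24164 and 22809 in the side population, 22502, 22574, 15128 and 25205 in the non-side population and 24511.5 and 21621 in unsorted cells. Non-side c was the lowest array of both among all 10. Their differences between letter pairs were -0.53 ± 0.31 and -0.56 ± 0.35. Of 3 further COX5B probe sets, 1 had the opposite sign, at 0.10.

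Of 6 isoform pairs of complex IV, the ubiquitous member was bright on every array and its partner was not tested. COX4I1 lay between 13566 and 25514 and COX4I2, the lung isoform, between 67.2 and 245.6. COX6A1 lay between 18129.9 and 31891, and COX6A2, the muscle isoform, between 15.8 and 126.5. COX6B2, known from testis, lay between 11.1 and 96.2, COX7A1, the muscle isoform, between 3.40 and 36.4, COX7B2 between 2.20 and 49.1 and COX8C between 1.5 and 145.2. Their partners COX7A2, COX7B and COX8A lay between 14544 and 28229.5, 17678 and 28539, and 9456 and 13927.

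In complex V, the ATP synthase, 16 of 17 tested genes were lower in the side population within a and b and 17 of 17 higher within c and d. ATP5PB, a subunit of the peripheral stalk, had 16439.6, 16025, 22620.2 and 19548 in side replicates a to d, 21650.1, 23488, 13024 and 19363 in non-side replicates a to d and 18724 and 17993 in unsorted cells. Side a and b were below non-side a and b, and non-side c was below every other array. Its difference was -0.47 ± 0.23 in a and b and 0.40 ± 0.23 in c and d, and -0.88 ± 0.32 between them (adjusted p = 0.129 by limma). ATP5PO, also of the stalk, had 13046, 12167, 15243 and 13233 in the side population, 15782, 17635.5, 8756 and 14129 in the non-side population and 11517 and 11176 in unsorted cells, with a difference between letter pairs of -0.76 ± 0.34. Non-side c was again the lowest. A further ATP5PO probe set above the filter had the opposite sign, at 0.56. ATP5MG, a subunit of the membrane part, had 21520.3, 23136, 23249 and 22451 in the side population, 26218, 28390.5, 13153 and 20419 in the non-side population and 24262 and 22339.7 in unsorted cells. The 4 side arrays lay close together, and non-side a and b were above non-side c and d by 0.74 ± 0.23 (adjusted p = 0.0421 by limma), which was 0.42 with adjusted p = 0.137 without non-side c. This call was lost on leaving out any array but non-side d, with adjusted p up to 0.207. ATP5MC1, ATP5MC2 and ATP5MC3 encode the same mature c subunit of the rotor ring. Within a and b their differences were -0.36 ± 0.31, -0.26 ± 0.23 and -0.27 ± 0.23, and within c and d 0.61 ± 0.31, 0.40 ± 0.23 and 0.34 ± 0.23. All 3 moved in the direction of the other members, and ATP5MC1 had the highest value in c and d of any complex V gene.

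NDUFA1 and ATP5F1D stood apart by size: both were lower in a and b than in c and d in each sorted population, and both by large amounts. The direction was not theirs alone. Among other members with it in both populations, NDUFV1 had -0.69 in the side and -0.26 in the non-side population. NDUFB1 had -0.69 and -0.22, and SDHA -0.21 and -0.22. NDUFA1, a small membrane subunit of complex I encoded on the X chromosome, had 9441, 8801, 29967 and 27419 in side replicates a to d, 11635, 12851.5, 20334 and 25485 in non-side replicates a to d and 23854 and 17018 in unsorted cells. In both populations c and d were far above a and b. The difference of a and b minus c and d was -1.65 ± 0.23 in the side population, 0.318 times the level (adjusted p = 0.0026 by limma), and -0.90 ± 0.23, 0.537 times, in the non-side population (adjusted p = 0.0196). In the side population it stayed called on leaving out any array, with adjusted p from 0.00167 to 0.0336. ATP5F1D, the delta subunit of the central stalk of complex V, had 2918, 2102, 4839 and 5794 in the side population, 2528, 2362, 4294 and 5069 in the non-side population and 4492 and 4452 in unsorted cells. Both a and b were again below c and d in each population, and below the unsorted arrays. Its differences were -1.09 ± 0.22 (adjusted p = 0.0148 by limma) and -0.93 ± 0.22 (adjusted p = 0.016), 0.468 and 0.524 times the level. A second ATP5F1D probe set gave -0.56 and -0.46. For the side population, adjusted p rose to 0.111 without side b, 0.0582 without side c and 0.101 without side d, and for the non-side population to 0.0892 without non-side b and 0.0666 without non-side c. In the non-side population, NDUFA1 had adjusted p = 0.0634 without non-side a and 0.0864 without non-side b. Both unsorted values of NDUFA1 were above those of a and b of the sorted arrays.

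**Figure D3:**
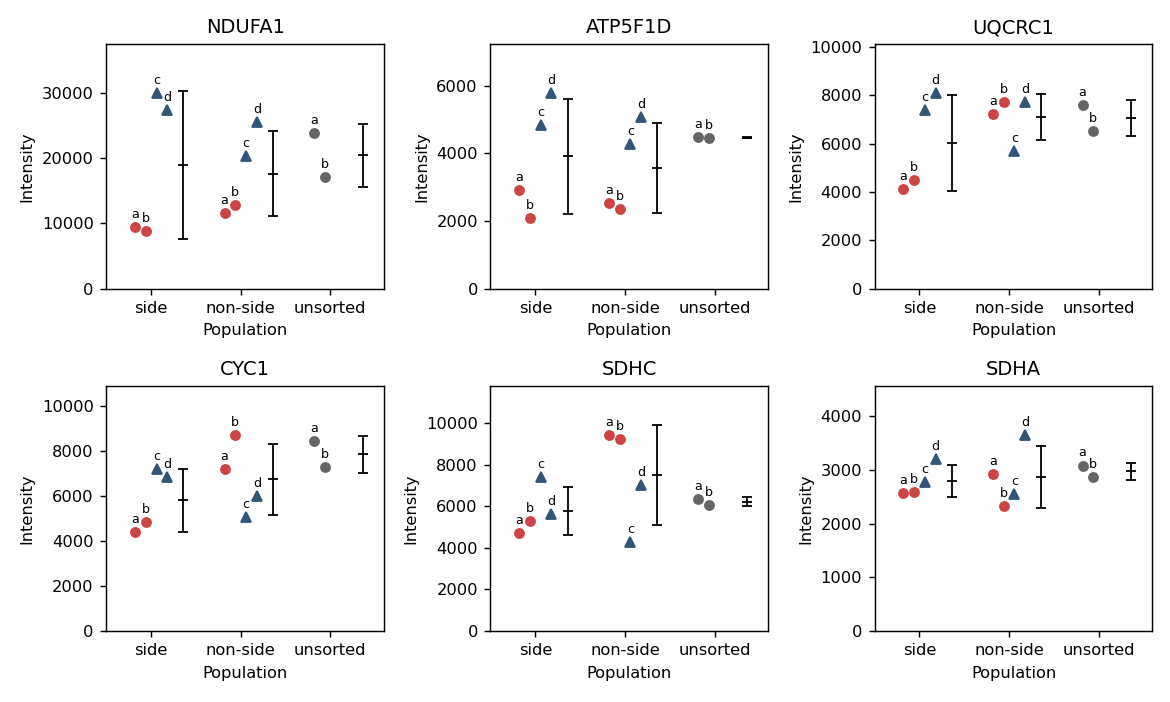
Deposited intensity (linear scale from 0) of 6 subunit genes in the side population, the non-side population and unsorted cells. Red circles are letters a and b, blue triangles c and d, grey circles unsorted cells, and the black bar is the mean ± SD of the group's arrays (n = 4, 4 and 2). NDUFA1 and ATP5F1D are low in a and b of both sorted populations, while UQCRC1 and CYC1 are low in a and b of the side population.

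Several of these values depended on non-side c. Without it the median difference of side minus non-side over all 4 letters was -0.13, with 60 of 70 genes negative, where it had been 0.02. The median of a and b minus c and d in the non-side population was 0.10 in place of 0.40, side minus non-side in c and d was 0.06 in place of 0.35, and the difference between letter pairs was -0.35 in place of -0.63. Without non-side d the same 3 medians were 0.67, 0.65 and -0.96. Those values rest on non-side c alone for letters c and d of the non-side population. Quantile normalization, which gives every array the same distribution, brought non-side c from -0.48 to -0.20 and non-side b from 0.28 to 0.03. Under it the median in a and b was -0.11, with 53 of 70 genes negative, in c and d 0.24, and the difference between letter pairs -0.33, with 66 negative. With quantile normalization and without non-side c the last was -0.20, with 61 negative, and a and b minus c and d in the non-side population was -0.04, the opposite sign. The difference of a and b minus c and d in the side population stayed between -0.43 and -0.20 in the settings run. None of these settings separates letters a and b of the side population from the missing line in their source label. Median centring moved the median of all genes by more than 0.1, to 0.18 for side minus non-side and 0.25 in c and d, and the members' medians were then 0.16 and 0.58.

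**Figure D4:**
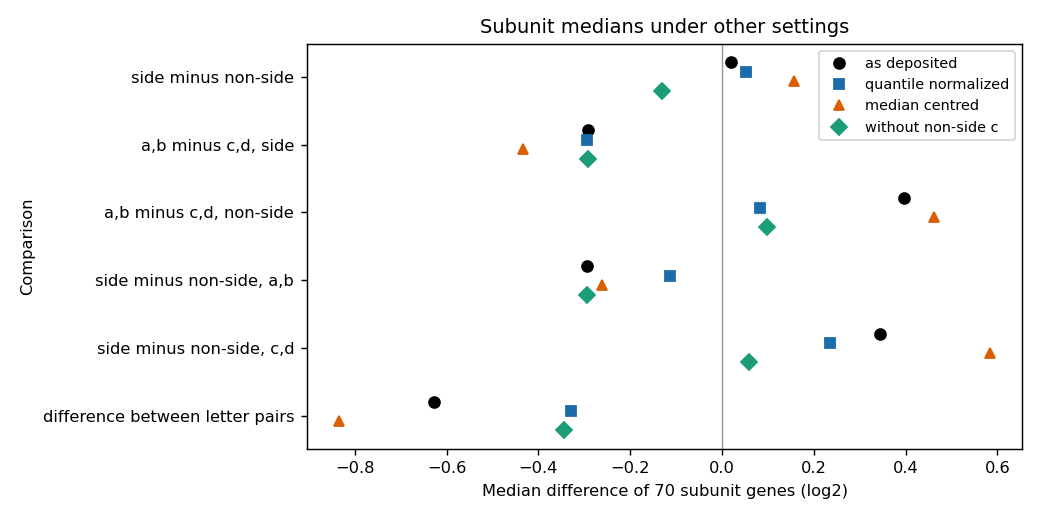
Median log2 difference of the 70 subunit genes in 6 comparisons (rows) as deposited, after quantile normalization, after median centring and without non-side replicate c. The comparison of letters in the side population lies below 0 in all 4, while side minus non-side over all letters is 0.02 as deposited and -0.13 without non-side c.

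Other genes of the pathway were taken from lists. Of the assembly factors, which help build the complexes but do not stay in them, 53 of 55 were tested. Their median was -0.43 in a and b, with 45 of 53 negative, and 0.30 in c and d, with 44 positive. In the non-side population 10 of 53 were called higher in a and b than in c and d, against 7.58% of all genes. Among them were TMEM126B and NDUFAF6, which act in complex I assembly, at 1.03 ± 0.31 and 1.0 ± 0.25 (adjusted p = 0.0374 and 0.0193 by limma). In a and b of the side against the non-side population, where 7.13% of all genes were called higher, 1 assembly factor was called. It was LRPPRC, which stabilises mitochondrial messenger RNAs, higher in the side population at 0.83 ± 0.20 (adjusted p = 0.0290 by limma). The 3 with the smallest p for the difference between letter pairs were TMEM70, TIMMDC1 and NDUFAF4, at -1.48 ± 0.41, -0.93 ± 0.31 and -1.13 ± 0.38.

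The 7 measured subunits encoded in mitochondrial DNA were all tested. Their median was 0.06 in a and b and 0.06 in c and d for side minus non-side, and -0.04 between letter pairs. On average all 7 were higher in a and b than in c and d in both populations, with medians of 0.39 and 0.44. Their summed intensity was 272757, 275218, 161686 and 261584 in non-side replicates a to d, so non-side d was near a and b and non-side c was low. In each population 1, ND6, was called higher, where 179 of all 9888 genes were in the side population and 750 in the non-side population. ND6, a complex I subunit encoded on the light strand, had 3753, 3181, 581.1 and 474.3 in side replicates a to d, 2889, 3416, 307.4 and 1355 in non-side replicates a to d and 424.2 and 809.2 in unsorted cells. Letters a and b were far above c and d in both populations, by 2.70 ± 0.50 (adjusted p = 0.00957 by limma) and 2.27 ± 0.50 (adjusted p = 0.0132).

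Of 17 tested regulators of mitochondrial biogenesis, POLRMT, the mitochondrial RNA polymerase, and POLG, the catalytic subunit of the mitochondrial DNA polymerase, were called higher in the side population within a and b, where 705 of the 9888 genes tested, 7.13%, were called higher. POLG had 862.6, 1367, 523.9 and 612.0 in the side population, 428.2, 436.3, 863.9 and 748.7 in the non-side population and 525.4 and 528.8 in unsorted cells. Side a and b were above non-side a and b, with a difference of 1.32 ± 0.26 (adjusted p = 0.0213 by limma). In the same comparison POLRMT had 1.22 ± 0.28 (adjusted p = 0.0267). Between letters, a and b against c and d, 4 regulators were called in the non-side population, TFAM higher and POLRMT, POLG and ESRRG lower. Of all genes tested, 7.58% were called higher and 13% lower in that comparison. TFAM, which packages mitochondrial DNA and starts its transcription, had 0.79 ± 0.21 (adjusted p = 0.0232 by limma). POLRMT and POLG had -0.96 ± 0.28 and -0.89 ± 0.26 (adjusted p = 0.0318 and 0.0323). ESRRG, an orphan nuclear receptor, had -1.42 ± 0.32 (adjusted p = 0.0135) there and was the 1 regulator called in the side population, at -1.97 ± 0.32 (adjusted p = 0.00501). In the side population 3.18% of all genes were called lower. PPARGC1A, a coactivator of this programme, lay between 4.60 and 107.8 on the 10 arrays. Of the citric acid cycle, 16 genes were tested, and in a and b the side population was lower for IDH3G, a subunit of isocitrate dehydrogenase, at -0.83 ± 0.21 (adjusted p = 0.0381 by limma), and higher for CS, citrate synthase, at 0.77 ± 0.20 (adjusted p = 0.0375). There, 2.07% of all genes were called lower and 7.13% higher. Of 19 electron carriers and feeding enzymes, 14 were lower in a and b and 14 higher in c and d, with medians of -0.38 and 0.13. Of the genes linked to MKN 45, 7 were tested. Their median of a and b minus c and d was -0.07 in the side population, with 2 of 7 positive. In the non-side population it was -0.81, with 0 of 7 positive. Among them MUC1, a mucin, was called lower in a and b in both populations, at -1.24 ± 0.24 and -1.88 ± 0.24 (adjusted p = 0.0108 and 0.00121 by limma). The shares of all genes called lower in these comparisons were 3.18% and 13%. ESRP1, a splicing regulator, was called lower in the non-side population at -1.0 ± 0.21 (adjusted p = 0.00987 by limma). The part of these genes in the subunits' differences was not tested.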

How the data were processed

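Total RNA of 10 samples was measured on single-channel arrays of 54675 probe sets. The authors deposited linear intensity values, and the submitters' processing notes name GCOS 1.4 with no role. Its algorithm and settings are not given in the sources. With 2% left out at each end, the trimmed mean was 500.065 to 500.095 on every array, so no further scaling was applied. Of the probe sets, 41097 name 1 gene, 1801 several and 11777 none. A constant of 6.1, the 10th percentile, was added before log2, which understates the change of dim genes. Of 19775 genes, the 9888 whose mean log2 value reached the median over genes, an intensity of 148.5, were tested.

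Differences were fitted in R 4.3.3 by limma 3.58.1 (lmFit and eBayes with a trend) on all 10 arrays, with 3 groups for the populations and 5 groups where letters a and b were separated from c and d, without covariates. Adjusted p-values are Benjamini-Hochberg values over all genes tested. The fit was tested on simulated data. No detection calls were used, and the number of arrays limits the precision. Figures and promoter searches used Python 3.11.15, pandas 2.3.3 and matplotlib 3.10.9, with the first listed promoter of a gene.

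The members, the gene lists and the letter pairs were chosen with earlier results of these data known. Values in every array are given for the 3 members of each of complexes I, III, IV and V with the smallest p for the difference between letter pairs, for complex II, and for the smallest p of the other comparisons. Isoform pairs, genes below the filter and up to 3 genes of a list were named by rule. A few further members and list genes (NDUFS1, NDUFV1, LRPPRC, TMEM126B, NDUFAF6, TFAM, ESRRG, PPARGC1A, LYZ and ACTA2) were named after their values were seen. Alternatives were the added constant, the filter, quantile normalization, median centring, the choice of probe set, AGS-labelled arrays only, dropping each array in turn and a block for the letter.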

Additional observations from a re-analysis of the deposited data

How the results depend on the processing

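Counts of members called that differed from the main count by over 1.5 times were as follows. Without a filter, 2 were called for a and b minus c and d in the non-side population (6 in the main analysis) and 0 for side minus non-side in a and b (3). Under quantile normalization, 1 was called for non-side minus unsorted (0), 6 for letters in the side population (3) and 0 for side minus non-side in a and b. Median centring gave 2 for letters in the non-side population and 0 in a and b. With every probe set there were 1, 5 and 1 for non-side minus unsorted, letters in the side population and side minus non-side in a and b. Added after seeing the data, the fit without side a and non-side c gave 2 for non-side minus unsorted, 1 for letters in the non-side population and 0 in a and b. Quantile normalization without non-side c, also added later, gave 1, 1, 7 and 1 for side minus unsorted, non-side minus unsorted, letters in the side population and letters in the non-side population. Leaving out 1 array in turn gave 0 to 3 calls for non-side minus unsorted, 1 to 5 for letters in the side population, 0 to 38 for letters in the non-side population, 0 to 5 for side minus non-side in a and b, and 0 to 32 for the difference between letter pairs. The share of all genes called was not set beside the counts from these other settings and fits without 1 array, here or above. Such counts cannot be read as particular to the subunits. The highest counts for letters in the non-side population and for the difference between letter pairs came without non-side d. That fit leaves only non-side c for letters c and d of that population. The difference between letter pairs of SDHA, 0.01, was reversed at -0.19 under median centring, and leaving out 1 array in turn gave -0.24 to 0.27 (-0.09 without side c, -0.15 without non-side b, -0.24 without non-side d). In the replicate block fit of side against non-side, 0 members were called. Same-letter arrays of the 2 populations had correlations of deviations of 0.21, 0.50, -0.11 and 0.36 for a, b, c and d, so the letters do not pair the samples throughout. Of single-gene results, 429 kept direction and side of the threshold, 102 lost their call, 11 gained one and 4 reversed. The cause of these changes was not tested.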
